A study of Drosophila melanogaster with 16 samples.

Results

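The genes described here are the antimicrobial peptide genes of Drosophila melanogaster, the smaller immune-induced peptide genes, the immune regulators Rel and pirk, and the peptidoglycan recognition protein (PGRP) genes. They were taken by symbol, from a fixed list of names plus every symbol that begins with PGRP-, with no cut on their values. The list was chosen with earlier results of these data known. The deposited counts hold 39 of these genes among 17558 genes in all. They are 14 classical antimicrobial peptide genes, 10 immune-induced small peptide genes, 2 regulators and 13 PGRP genes. RNA was sequenced from heads of male flies aged 5 to 8 days after eclosion and kept at 25 °C. The flies expressed a long (160R) or a short (5R) repeat from a transgene on chromosome 2 or chromosome 3, which gave 4 groups of 4 libraries each. Those with the insertion on chromosome 2 are named Chrom2-160R and Chrom2-5R, those with it on chromosome 3 Chrom3-160R and Chrom3-5R. The repeat is GGGGCC, which in C9ORF72 is expanded in an inherited form of amyotrophic lateral sclerosis and frontotemporal dementia, and 160R against 5R asks what the longer repeat changes. Every group carried a repeat transgene, the 5R flies included. The sources used here do not give the driver, the genetic background, the origin of each insertion or the number of heads per library. No counted gene is the transgene, whose level is not analysed here.

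Flies fight microbes with secreted peptides made mostly by the fat body, the insect counterpart of liver and adipose tissue, a layer of which also lines the head. In the Imd pathway, peptidoglycan of Gram-negative bacteria is bound by PGRP-LC or PGRP-LE, and the signal ends in cleavage of the NF-kappaB factor Relish (Rel), which switches on genes such as the diptericins. In the Toll pathway, fungal or Gram-positive material starts a protease cascade that matures the ligand Spätzle, and the factors Dif and Dorsal then switch on genes such as Drosomycin (Drs) and the Bomanins. Many of these genes are induced strongly and briefly, and several PGRPs with amidase activity break down peptidoglycan and so limit the response.

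Chrom2-160R libraries held 19047916 to 30496479 counts, Chrom2-5R libraries 11452337 to 23498476, Chrom3-160R libraries 48118158 to 49792428 and Chrom3-5R libraries 42854987 to 53615117, so insertion chromosome and depth cannot be told apart. Levels are CPM, counts scaled to library size by TMM, and values are listed for replicates 1 to 4 of a group in that order. Changes are log2 fold changes from edgeR's quasi-likelihood test, given ± SE. The SE was derived as the absolute change divided by the square root of the F statistic of that test. A gene is said to be called, higher or lower where p was below 0.05 after Benjamini-Hochberg adjustment. The adjustment covered the 13525 genes that passed the low-count filter. All tests were two-sided. Of the 39 genes, 35 passed the filter. The other 4 were IM10, with 1 to 12 counts per library, PGRP-SB2, with 1 to 12, PGRP-SC1b, with 0 to 8, and PGRP-SC1a, with 0 to 2 counts and none in 13 libraries. Counts cover whole gene spans and reads of both strands largely entered both genes of an overlapping pair. Of the 39 genes, 12 overlap another gene, which is named where its counts could enter the result. The 160R libraries with the highest summed counts of 9 muscle markers were Chrom2-160R replicate 1 (10580 CPM) and Chrom3-160R replicate 4 (6577 CPM).

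In chromosome 2 flies, the long repeat went with more RNA of 4 Bomanin genes and PGRP-LA and with less of CG16712. Counts over Rel and PGRP-LD were higher too, but these genes share their span with Nmdmc and Pmi and the change cannot be assigned to them, while none of the classical antimicrobial peptide genes was called. Of the Bomanin calls, that of IM1 was lost in 7 of 18 alternative analyses. CG15068, in the same gene cluster but not among the 39 genes, was lower (-0.54 ± 0.11, edgeR adjusted p = 0.00225). The summed levels of fat body and midgut markers were lower in the same heads, as described at the end. Those of muscle and neuron markers were higher. On chromosome 3 the fat body sums were lower with 160R too, with ranges apart (9757 to 10860 CPM in Chrom3-160R, 12310 to 13540 CPM in Chrom3-5R). In total 7 of the 35 tested genes were higher and 1 lower in Chrom2-160R than in Chrom2-5R heads by edgeR's adjusted p. Over all tested genes, 26.1% were called in this comparison (12.8% higher and 13.3% lower), so the share among these genes, 22.9%, was near the background. Without both libraries with high muscle markers 7 of the 35 genes were called. The median log2 change was 0.16 over the 35 genes and 0.01 over all tested genes. In chromosome 3 flies, 0 of the 35 genes were called by edgeR, against 2.11% of all genes. Without adjustment, 2 of them had a p below 0.05, and DESeq2 called 1, CG16712, while limma-voom called 0. The median log2 change there was 0.02, against 0.00 over all tested genes. All 4 groups of genes are shown side by side in the plot of changes with their standard errors.

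**Figure D1:**
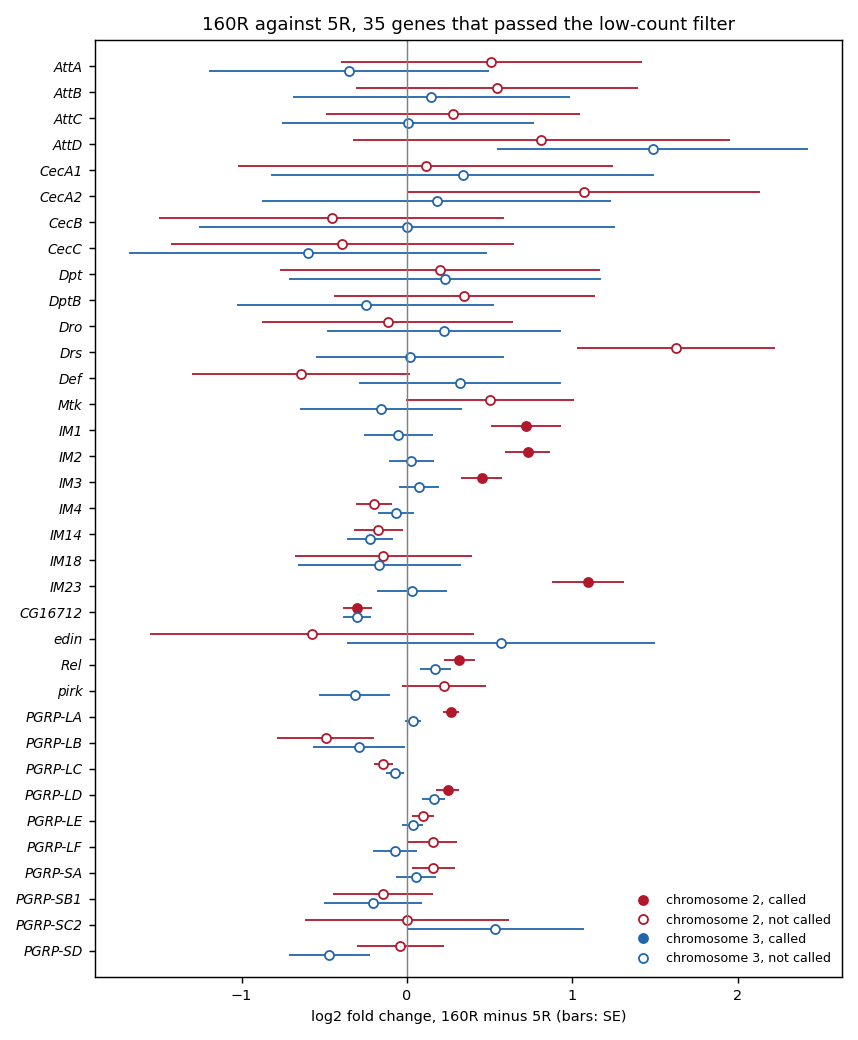
Log2 fold change of 160R against 5R (horizontal axis) for the 35 genes that passed the low-count filter, with the chromosome 2 comparison in red and the chromosome 3 comparison in blue. Points are edgeR estimates, bars are SE and filled points were called. The classical peptides at the top carry bars of 0.49 to 1.26 and no filled point, and the 8 filled points are all in the chromosome 2 comparison.

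The classical antimicrobial peptides were found in every group and differed widely between libraries of the same group. On chromosome 2 their log2 changes ran from -0.64 to 1.63 with a median of 0.31 (0.01 over all tested genes), 10 positive and 4 negative. On chromosome 3 they ran from -0.60 to 1.49 with a median of 0.08 (0.00 over all tested genes), again 10 positive and 4 negative. edgeR called 0 of the 14 genes in either comparison, with 1 unadjusted p below 0.05 on chromosome 2 and 0 on chromosome 3. DESeq2 called 1 on chromosome 2 (Drs) and 0 on chromosome 3, and limma-voom called 0 in both. The median SE of the 14 changes was 0.88 on chromosome 2 and 0.84 on chromosome 3, against 0.09 and 0.08 over all tested genes, so that only large changes were detectable at this spread. Under at least 1 alternative analysis the sign turned for 9 of the 14 genes on chromosome 2 and for all 14 on chromosome 3. On chromosome 2 the other 5, AttD, CecA2, DptB, Drs and Mtk, stayed positive in every alternative. As edgeR called none of the 14, no direction is given for any of them. In each of the 14 genes, the range of the 160R libraries overlapped that of the 5R libraries on both chromosomes.

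The attacins are glycine-rich peptides active mainly against Gram-negative bacteria. AttA (2R:14747362-14748215) had 9.88, 23.7, 41.5 and 11.1 CPM in Chrom2-160R, against 4.99, 40.2, 7.20 and 6.87 CPM in Chrom2-5R. With the transgene on chromosome 3, AttA had 8.35, 2.75, 31.0 and 33.8 CPM in Chrom3-160R, against 46.7, 21.8, 7.10 and 20.9 CPM in Chrom3-5R. Within each group the highest AttA library held over 4 times the level of the lowest, and the log2 changes were 0.51 ± 0.91 on chromosome 2 and -0.35 ± 0.85 on chromosome 3 (edgeR adjusted p = 0.736 and 0.901). AttB, its neighbour and near-identical copy, had 19.9, 40.4, 79.7 and 23.1 CPM in Chrom2-160R and 8.58, 76.2, 13.8 and 11.8 CPM in Chrom2-5R. On chromosome 3, AttB had 9.88, 3.57, 24.6 and 38.3 CPM in Chrom3-160R and 33.6, 14.0, 6.21 and 14.8 CPM in Chrom3-5R. Its changes were 0.55 ± 0.85 and 0.15 ± 0.84 (edgeR adjusted p = 0.695 and 0.962), and reads may be split between the copies in a way the counts do not show. AttC, on the same arm but at a separate site, had 108, 103, 206 and 73.1 CPM in Chrom2-160R and 58.8, 199.6, 83.8 and 60.8 CPM in Chrom2-5R. On chromosome 3, AttC had 42.6, 7.62, 91.9 and 93.5 CPM in Chrom3-160R and 104, 56.2, 9.05 and 64.8 CPM in Chrom3-5R. AttC too was lowest in Chrom3-160R replicate 2 and Chrom3-5R replicate 3, and its changes were 0.28 ± 0.77 and 0.01 ± 0.76 (edgeR adjusted p = 0.842 and 0.999). AttD, which unlike the other attacins lacks a signal peptide, was much scarcer, with 1.77, 0.752, 2.43 and 0.490 CPM in Chrom2-160R and 0.0942, 1.37, 0.215 and 1.13 CPM in Chrom2-5R. On chromosome 3, AttD had 0.440, 0.468, 0.181 and 5.70 CPM in Chrom3-160R and 0.687, 0.724, 0.388 and 0.595 CPM in Chrom3-5R. A single library, Chrom3-160R replicate 4, set the chromosome 3 change of 1.49 ± 0.94 (edgeR adjusted p = 0.5), which was -0.72 without it, and the chromosome 2 change was 0.81 ± 1.14 (edgeR adjusted p = 0.656).

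The cecropins are short helical peptides that disrupt bacterial membranes, and 4 of them lie together on 3R between 30210874 and 30216938. CecA1 had 2.53, 13.0, 18.5 and 4.93 CPM in Chrom2-160R and 3.30, 28.5, 2.31 and 1.35 CPM in Chrom2-5R. On chromosome 3, CecA1 had 1.01, 0.136, 4.24 and 9.17 CPM in Chrom3-160R and 6.44, 2.41, 0.411 and 2.13 CPM in Chrom3-5R. The highest library held 209 times the level of the lowest, and the changes were 0.11 ± 1.13 and 0.34 ± 1.16 (edgeR adjusted p = 0.963 and 0.935). CecA2, which codes for the same mature peptide, had 2.38, 9.77, 12.2 and 3.14 CPM in Chrom2-160R and 0.660, 10.1, 1.45 and 0.392 CPM in Chrom2-5R. On chromosome 3, CecA2 had 0.650, 0.175, 3.06 and 4.31 CPM in Chrom3-160R and 4.18, 1.19, 0.297 and 1.46 CPM in Chrom3-5R. The CecA2 changes of 1.07 ± 1.07 and 0.18 ± 1.06 were within the spread of the libraries (edgeR adjusted p = 0.513 and 0.963), and the near-identical copies may share reads. CecB, the scarcest of the cluster, had 0.456, 1.18, 3.34 and 0.914 CPM in Chrom2-160R and 0.565, 6.85, 0.537 and 0.131 CPM in Chrom2-5R. On chromosome 3, CecB had 0.268, 0.0195, 0.563 and 0.786 CPM in Chrom3-160R and 0.828, 0.447, 0 and 0.325 CPM in Chrom3-5R, where replicate 3 had no count. Its changes were -0.46 ± 1.04 and 0.00 ± 1.26 (edgeR adjusted p = 0.803 and 0.999). CecC had 0.963, 3.11, 8.37 and 1.96 CPM in Chrom2-160R and 1.79, 15.3, 1.02 and 0.740 CPM in Chrom2-5R. On chromosome 3, CecC had 0.554, 0.156, 1.69 and 2.14 CPM in Chrom3-160R and 3.54, 1.62, 0.206 and 1.42 CPM in Chrom3-5R. For each cecropin the highest of all 16 libraries was replicate 2 of Chrom2-5R or replicate 3 of Chrom2-160R, and the CecC changes were -0.39 ± 1.04 and -0.60 ± 1.08 (edgeR adjusted p = 0.834 and 0.855).

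Diptericin (Dpt, today DptA) and DptB are neighbouring Imd targets on 2R, and drosocin (Dro) is a proline-rich peptide, all active mainly against Gram-negative bacteria. Dpt had 58.3, 27.8, 76.2 and 29.4 CPM in Chrom2-160R and 16.5, 86.6, 27.2 and 34.7 CPM in Chrom2-5R. On chromosome 3, Dpt had 21.1, 3.16, 64.9 and 83.7 CPM in Chrom3-160R and 92.5, 27.3, 3.40 and 23.8 CPM in Chrom3-5R. The 3.16 CPM of Chrom3-160R replicate 2 and the 3.40 CPM of Chrom3-5R replicate 3 stood far below the others of their groups, and the changes were 0.20 ± 0.97 and 0.23 ± 0.94 (edgeR adjusted p = 0.917 and 0.947). DptB had 53.2, 45.2, 83.5 and 33.0 CPM in Chrom2-160R and 19.5, 79.9, 37.1 and 30.8 CPM in Chrom2-5R. On chromosome 3, DptB had 17.1, 3.08, 40.0 and 41.6 CPM in Chrom3-160R and 61.3, 27.9, 4.04 and 27.5 CPM in Chrom3-5R. In every group the highest library was the same as for Dpt, and the changes were 0.35 ± 0.79 and -0.25 ± 0.78 (edgeR adjusted p = 0.802 and 0.928). Dro had 5.88, 6.34, 24.8 and 8.62 CPM in Chrom2-160R and 9.61, 17.2, 6.99 and 16.1 CPM in Chrom2-5R. On chromosome 3, Dro had 5.68, 2.75, 19.5 and 22.4 CPM in Chrom3-160R and 20.7, 8.80, 2.95 and 10.4 CPM in Chrom3-5R. Its changes were small beside their errors, at -0.12 ± 0.76 and 0.23 ± 0.71 (edgeR adjusted p = 0.943 and 0.928).

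Drosomycin (Drs), a cysteine-rich antifungal peptide and the usual readout of Toll signalling, came nearest to a call. Drs (3L:3369556-3369942) had 63.5, 54.1, 122 and 30.3 CPM in Chrom2-160R, against 14.0, 45.9, 9.40 and 17.1 CPM in Chrom2-5R. Only Chrom2-5R replicate 2 reached into the range of the 160R libraries. The change on chromosome 2 was 1.63 ± 0.60 (edgeR adjusted p = 0.0653, range over the alternatives 0.0215 to 0.191). It passed the threshold with DESeq2 (adjusted p = 0.0248), without Chrom2-5R replicate 2 (0.0215) and without Chrom2-160R replicate 4 (0.0434). On chromosome 3, Drs had 20.6, 12.7, 43.3 and 32.7 CPM in Chrom3-160R and 28.9, 38.2, 11.0 and 29.6 CPM in Chrom3-5R, a change of 0.02 ± 0.57 (edgeR adjusted p = 0.995). The difference between the chromosomes was -1.61 ± 0.82 and was not called (edgeR adjusted p = 0.276). Metchnikowin (Mtk), a proline-rich peptide active against fungi and Gram-positive bacteria, had 38.0, 40.9, 59.5 and 33.8 CPM in Chrom2-160R and 25.2, 34.7, 23.8 and 37.3 CPM in Chrom2-5R. On chromosome 3, Mtk had 26.8, 8.94, 39.3 and 34.6 CPM in Chrom3-160R and 48.6, 34.1, 7.81 and 31.4 CPM in Chrom3-5R. Its changes were 0.50 ± 0.51 and -0.15 ± 0.49 (edgeR adjusted p = 0.517 and 0.929), and it lies inside CG43729 on the same strand, a gene with 13.2 times its counts. Defensin (Def), active against Gram-positive bacteria, had 8.92, 2.79, 2.23 and 2.12 CPM in Chrom2-160R and 3.02, 4.47, 2.85 and 13.1 CPM in Chrom2-5R. On chromosome 3, Def had 3.13, 2.81, 1.85 and 8.42 CPM in Chrom3-160R and 3.19, 4.30, 2.06 and 3.37 CPM in Chrom3-5R. In all but Chrom3-5R a single library stood well above the others, and the changes were -0.64 ± 0.66 and 0.32 ± 0.61 (edgeR adjusted p = 0.525 and 0.863). Def lies inside magu, on the opposite strand, which has 18.2 times its counts, so part of its low counts may be reads of magu.

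**Figure D2:**
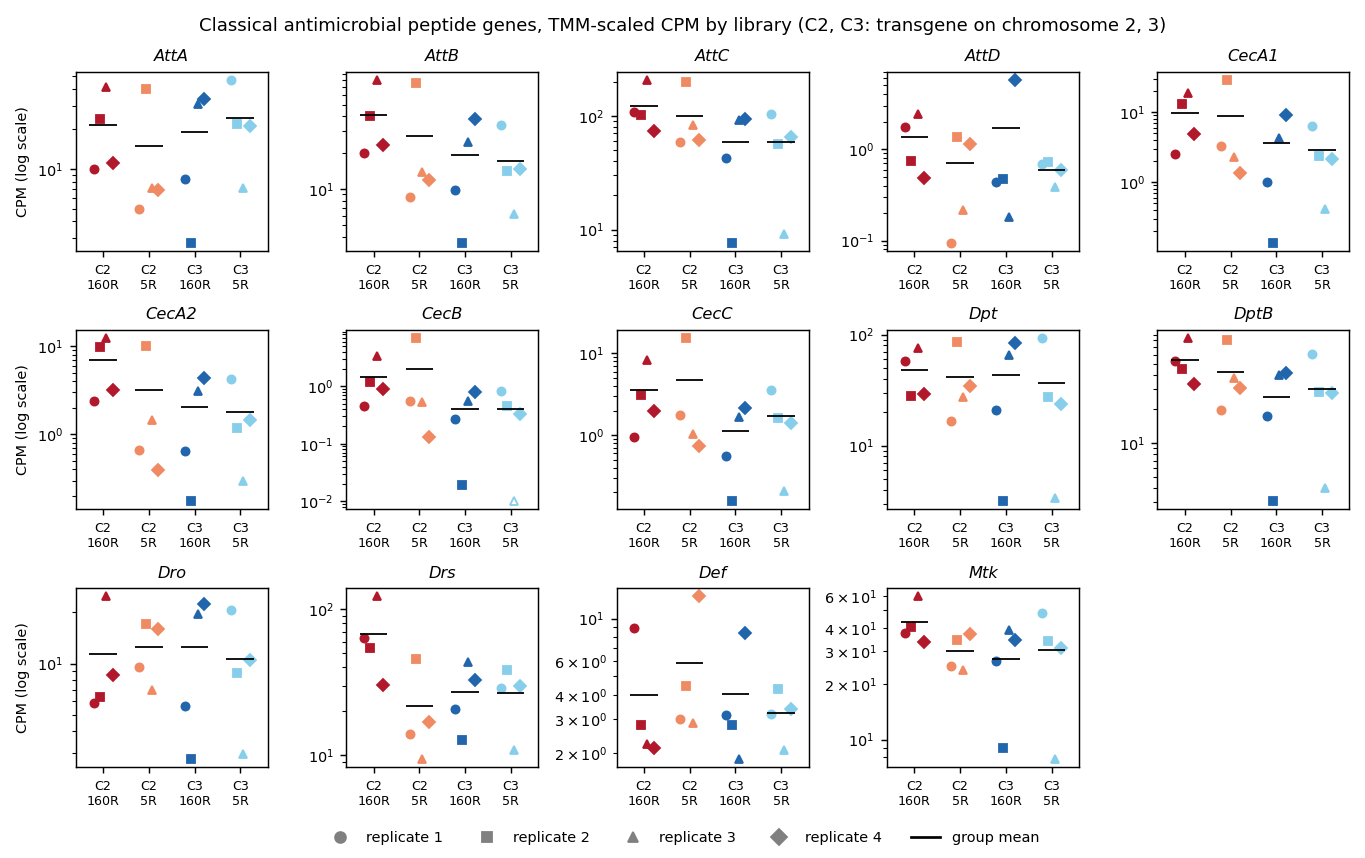
TMM-scaled CPM (vertical axes, log scale) of the 14 classical antimicrobial peptide genes in the 16 libraries, with 160R left of 5R for chromosome 2 (red and orange) and chromosome 3 (dark and light blue). Symbols give the replicate number, black lines the group mean, and the open symbol of CecB is a library with 0 counts drawn at 0.01. The 160R and 5R libraries overlap in every panel, and the Chrom3-160R replicate 2 and Chrom3-5R replicate 3 symbols lie at the bottom of most.

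Most of the peptides varied together from library to library, above all in which library of a group was highest. Chrom2-160R replicate 3 was the highest library of its group for 13 of the 14 genes, and Chrom2-5R replicate 2 for 12. The lowest library was less shared on chromosome 2. It was replicate 1 for 7 genes and replicate 4 for 6 in Chrom2-160R. In Chrom2-5R it was replicate 1 for 6 genes and replicates 3 and 4 for 4 each. Within Chrom3-160R, replicate 4 was highest for 12 genes and replicate 2 lowest for 12, and in 9 genes that library was the lowest of all 16. Chrom3-5R replicate 1 was highest in its group for 11 genes and replicate 3 lowest for all 14. The summed level of the 14 genes was 374, 372, 741 and 256 CPM in Chrom2-160R and 167, 647, 218 and 232 CPM in Chrom2-5R. On chromosome 3 the sum was 158, 48.3, 366 and 411 CPM in Chrom3-160R and 455, 239, 54.9 and 232 CPM in Chrom3-5R. Each group thus held libraries that were high and low for that group, but the levels were not alike. The lowest sums, 48.3 and 54.9 CPM, were both on chromosome 3. The lowest Chrom2-160R sum, 256 CPM, was above every Chrom2-5R sum except that of replicate 2.

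The spread within groups set these genes apart in size from most others. The median SD of log2 CPM within a group was 0.96 for the 14 peptides in Chrom2-160R, 1.18 in Chrom2-5R, 1.62 in Chrom3-160R and 1.31 in Chrom3-5R. Over all tested genes the median SD was 0.13, 0.13, 0.09 and 0.09 in the same order, and the 95th percentile was 0.64, 0.70, 0.43 and 0.43. The immune-induced small peptides spread far less, with medians of 0.21, 0.25, 0.17 and 0.26. Beside the peptide sums above, the summed level of 14 fat body markers for replicates 1 to 4 was 8963, 8579, 8070 and 8113 CPM in Chrom2-160R and 15100, 13290, 13550 and 13400 CPM in Chrom2-5R. On chromosome 3 it was 10860, 9764, 9757 and 10240 CPM in Chrom3-160R and 13010, 13310, 13540 and 12310 CPM in Chrom3-5R. In Chrom2-160R the library with the highest peptide sum had the lowest fat body sum, and in Chrom2-5R the order of the 4 libraries was reversed between the sums. In Chrom3-5R the library with the lowest peptide sum had the highest fat body sum, while in Chrom3-160R the library with the highest peptide sum had the second highest fat body sum. The part of fat body content in the spread was not tested. The sum of 13 hemocyte markers lay between 1152 and 1351 CPM in Chrom3-160R and between 1286 and 1423 CPM in Chrom3-5R. Chrom3-160R replicate 4, with the highest muscle marker sum of its group, was also highest in peptides, while Chrom2-160R replicate 1, with the highest muscle marker sum of all, was not.

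**Figure D3:**
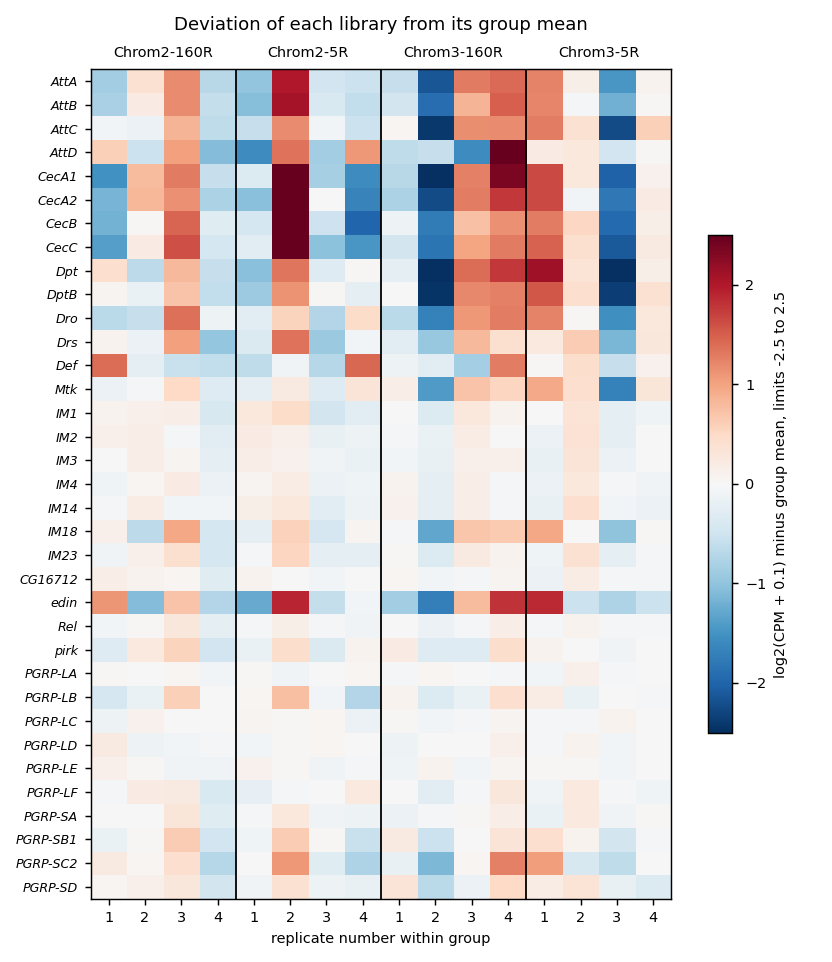
Each cell gives the log2(CPM + 0.1) of a gene (rows, 35 genes that passed the filter) in a library (columns, by group and replicate number) minus the mean of its group. Colours run from blue (below the group mean) to red (above) and stop at 2.5 on either side. The columns of Chrom2-5R replicate 2 and Chrom3-160R replicate 4 are red, and those of Chrom3-160R replicate 2 and Chrom3-5R replicate 3 blue, through nearly all classical peptides at the top, while most PGRP rows are pale.

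By fold change, the largest called differences between 160R and 5R among these genes were in Bomanins, short secreted peptides induced by Toll and needed for much of its protection against fungi and Gram-positive bacteria. IM23, IM1, IM2 and IM3 (today BomBc1, BomS1, BomS2 and BomS3) lie within 6.03 kb of chromosome arm 2R, at 18382704-18388734, and all 4 were higher in Chrom2-160R. IM23 had 67.1, 77.3, 93.0 and 52.3 CPM in Chrom2-160R, against 31.9, 47.9, 27.7 and 27.9 CPM in Chrom2-5R. The groups did not overlap, and the change was 1.10 ± 0.22 (edgeR adjusted p = 0.00284). IM2 had 255, 262, 227 and 195 CPM in Chrom2-160R, against 161, 153, 123 and 129 CPM in Chrom2-5R. Every 160R library was above every 5R library, with a change of 0.73 ± 0.14 (edgeR adjusted p = 0.0016). IM3 had 129, 146, 135 and 110.3 CPM in Chrom2-160R, against 107, 102, 88.8 and 84.1 CPM in Chrom2-5R. The lowest 160R library was just above the highest 5R library, and the change was 0.45 ± 0.12 (edgeR adjusted p = 0.0142). IM1 had 113, 115, 119 and 79.9 CPM in Chrom2-160R, against 74.8, 86.6, 45.4 and 52.2 CPM in Chrom2-5R. Here replicate 4 of Chrom2-160R fell within the 5R range, and the change was 0.72 ± 0.21 (edgeR adjusted p = 0.0252). The calls of IM23, IM2 and IM3 held in all 18 alternative analyses. That of IM1 was lost without Chrom2-160R replicate 1, 2 or 3 (adjusted p = 0.0583, 0.0608 and 0.0619), without Chrom2-5R replicate 3 or 4 (0.0707 and 0.0656), when only the compared groups were fitted (0.0836), and without both libraries with high muscle markers (0.0754, range over the alternatives 0.00557 to 0.0836).

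On chromosome 3 the same genes showed no difference that passed the test. IM23 had 32.0, 24.6, 36.5 and 33.1 CPM in Chrom3-160R and 28.4, 39.5, 26.1 and 29.4 CPM in Chrom3-5R, a change of 0.03 ± 0.21 (edgeR adjusted p = 0.968). IM2 had 107, 97.9, 126 and 111 CPM in Chrom3-160R and 97.2, 137, 92.1 and 106 CPM in Chrom3-5R, a change of 0.03 ± 0.13 (edgeR adjusted p = 0.955). IM3 had 70.4, 64.9, 80.4 and 81.0 CPM in Chrom3-160R and 61.6, 87.1, 62.8 and 70.1 CPM in Chrom3-5R, a change of 0.08 ± 0.12 (edgeR adjusted p = 0.831). IM1 had 57.4, 46.1, 69.9 and 61.7 CPM in Chrom3-160R and 61.1, 76.0, 50.6 and 56.2 CPM in Chrom3-5R, a change of -0.05 ± 0.21 (edgeR adjusted p = 0.945). For each of the 4 genes the chromosome 3 libraries overlapped, and the means of Chrom3-160R and Chrom3-5R both lay below that of Chrom2-5R. The chromosome 3 change minus the chromosome 2 change was -0.70 ± 0.19 for IM2 (edgeR adjusted p = 0.042), -1.06 ± 0.30 for IM23 (0.053), -0.77 ± 0.30 for IM1 (0.137) and -0.38 ± 0.17 for IM3 (0.203), so that of these only IM2 was called. Over all genes, 7.27% were called for this difference, and among the 35 genes described here 2 were, IM2 and PGRP-LA. The IM2 call was near the threshold and was lost without any of Chrom2-160R replicates 1, 2 and 3, Chrom2-5R replicates 2, 3 and 4, Chrom3-160R replicates 1, 2 and 4 or Chrom3-5R replicates 1, 2 and 4 (adjusted p = 0.0556 to 0.0883), with no low-count filter (0.0511), after thinning to the smallest library (0.0611) and without both libraries with high muscle markers (0.0992). IM23 was called with DESeq2 (0.0141), limma-voom (0.0333) and the stricter low-count filter (0.0448), and without Chrom2-5R replicate 2 (0.0185) or Chrom2-160R replicate 4 (0.0298).

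**Figure D4:**
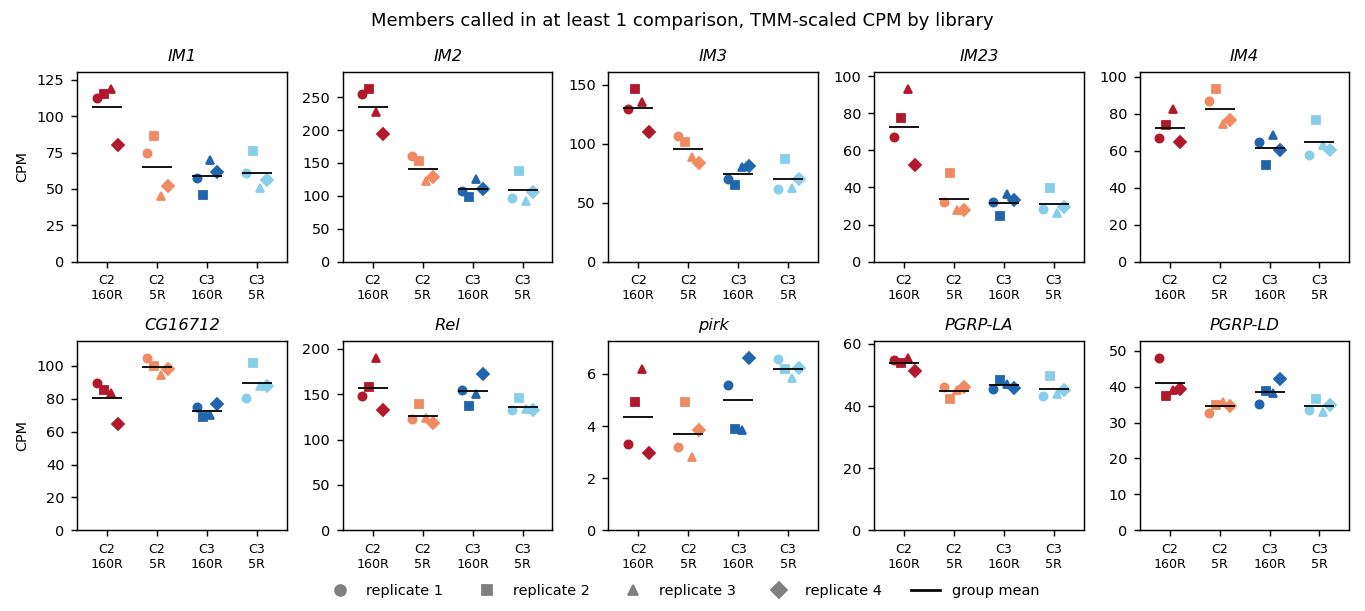
TMM-scaled CPM (vertical axes, from 0) in the 16 libraries of the 10 genes called in at least 1 comparison, with 160R left of 5R for chromosome 2 (red and orange) and chromosome 3 (dark and light blue). Symbols give the replicate number and black lines the group mean. C2 and C3 stand for the insertion chromosome. In the Bomanins IM1, IM2, IM3 and IM23 of the upper row the Chrom2-160R libraries are above all others, at 52.3 to 93.0 CPM for IM23, except replicate 4 for IM1.

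The rest of the Bomanin cluster did not move as a block. Among its other genes tested, CG43202 (0.96 ± 0.33, edgeR adjusted p = 0.0445) and CG15065 (0.42 ± 0.12, 0.0186) were higher in Chrom2-160R and CG15068 was lower (-0.54 ± 0.11, 0.00225). CG15067, the most abundant gene between IM1 and IM2, changed by 0.34 ± 0.13 (0.0747), CG16836 by 0.28 ± 0.12 (0.0907) and CG18107 by 0.11 ± 0.16 (0.675), none of them called by edgeR. The end of CG18107 (median 33.0 CPM) overlaps CG15067 (median 162 CPM) on the opposite strand, so they may share reads. CG15067 was called with DESeq2 (0.0332) and without Chrom2-5R replicate 2 (0.0334), and CG16836 without Chrom2-160R replicate 4 (0.0423). The call of CG43202 was lost in 9 of 18 alternatives (adjusted p up to 0.161), among them without Chrom2-160R replicate 2 or 3 (0.108 and 0.136) and Chrom2-5R replicate 1, 3 or 4 (0.1, 0.131 and 0.122), and that of CG15065 without Chrom2-160R replicate 2 or 3 (0.0503 and 0.0607), without Chrom2-5R replicate 3 (0.0565) and with limma-voom (0.0511). On chromosome 3, CG16836 was higher in Chrom3-160R at 30.5 ± 4.39 CPM, against 21.8 ± 2.89 CPM in Chrom3-5R (SD, n = 4 each), a change of 0.48 ± 0.11 (edgeR adjusted p = 0.0331). This call was lost without Chrom3-160R replicate 1 or 3 (0.0743 and 0.116) and without Chrom3-5R replicate 1 or 3 (0.113 and 0.13), and with the compared groups only (0.0981). CG5778, a related gene outside the cluster, rose in Chrom2-160R to 17.7 ± 3.20 CPM, against 11.0 ± 1.04 CPM in Chrom2-5R (0.68 ± 0.16, edgeR adjusted p = 0.0054). Its change on chromosome 3 was -0.49 ± 0.14 and was not called by edgeR (0.112) but was by DESeq2 (0.0245), and the difference between the chromosomes was called at -1.16 ± 0.21 (0.00447). Over the whole of arm 2R 26.6% of tested genes were called in the chromosome 2 comparison, against 26% on the other arms, so the share was alike on the arm that holds the Bomanins.

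Among the other small peptides, CG16712 (today IM33) was lower in Chrom2-160R. CG16712, on 2L, had 89.8, 85.1, 83.4 and 64.7 CPM in Chrom2-160R, against 105, 99.8, 94.5 and 98.0 CPM in Chrom2-5R. The ranges did not overlap, and the change was -0.30 ± 0.09 (edgeR adjusted p = 0.0185), a call lost without Chrom2-5R replicate 1 (0.0529). On chromosome 3, CG16712 had 74.8, 69.0, 70.2 and 76.5 CPM in Chrom3-160R and 80.7, 102, 88.1 and 87.6 CPM in Chrom3-5R. The ranges were again apart and the change was of like size, -0.30 ± 0.09, but the adjusted p was 0.0885 by edgeR, while DESeq2 (0.0217) and a fit of the compared groups only (0.0407) called it. It was the only gene described here whose libraries did not overlap in the same direction in both comparisons. In the chromosome 2 comparison 5 genes lay wholly above and 1 wholly below, where 11.9% of all genes lay above and 10.7% below, and in the chromosome 3 comparison 1 lay below, where 11.5% of all genes lay apart in either direction.

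IM4 and IM14 (today Dso1 and Dso2) are neighbouring Toll-induced antifungal peptide genes, and neither was called between 160R and 5R. IM4 had 67.0, 74.0, 82.8 and 65.0 CPM in Chrom2-160R and 86.9, 93.3, 74.8 and 76.4 CPM in Chrom2-5R. On chromosome 3, IM4 had 64.8, 52.5, 68.8 and 60.4 CPM in Chrom3-160R and 57.7, 76.7, 63.2 and 60.6 CPM in Chrom3-5R. The IM4 changes were -0.20 ± 0.11 and -0.07 ± 0.11 (edgeR adjusted p = 0.204 and 0.833), and those of IM14, at 16.1 to 32.6 CPM over all libraries, -0.17 ± 0.15 and -0.22 ± 0.14 (0.432 and 0.493). Edin, a peptide raised by infection, ranged from 0.526 to 12.6 CPM and IM18 from 4.42 to 24.7 CPM, and neither was called (edgeR adjusted p = 0.722 and 0.887 on chromosome 2). Both spread across libraries like the classical peptides. Edin lies inside Oatp74D, which has 23.3 times its counts, and IM18 shares its whole span with CG10332, so that the counts of these genes are uncertain.

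Rel, the NF-kappaB factor of the Imd pathway, had 148, 159, 190.1 and 132 CPM in Chrom2-160R, against 123, 139, 124 and 118 CPM in Chrom2-5R. The upper 5R library lay inside the 160R range, and the change was 0.32 ± 0.09 (edgeR adjusted p = 0.0207). On chromosome 3, Rel had 155, 138, 150.3 and 172 CPM in Chrom3-160R and 133, 146, 133 and 133 CPM in Chrom3-5R, a change of 0.17 ± 0.09 that was not called (0.405). Rel lies wholly inside the span of Nmdmc on the same strand, which has 1.62 times its counts and rose by 0.49 ± 0.13 in the chromosome 2 comparison (edgeR adjusted p = 0.0114), so the change of Rel cannot be told apart from that of its host. The call was also lost when only the compared groups were fitted (0.0702) and without Chrom2-160R replicate 3 (0.0521) or Chrom2-5R replicate 1, 3 or 4 (0.0517, 0.0521 and 0.0543). Pirk, which damps Imd signalling by acting on PGRP-LC, had 3.29, 4.94, 6.17 and 2.97 CPM in Chrom2-160R and 3.20, 4.92, 2.79 and 3.83 CPM in Chrom2-5R. On chromosome 3, pirk had 5.58, 3.88, 3.86 and 6.61 CPM in Chrom3-160R and 6.59, 6.18, 5.82 and 6.22 CPM in Chrom3-5R. Both sets overlapped, with changes of 0.22 ± 0.25 and -0.32 ± 0.22 (edgeR adjusted p = 0.57 and 0.534).

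Of the 10 PGRP genes tested, 2 were higher in Chrom2-160R and the others were not called. PGRP-LA, which modulates the Imd response, lies on 3L at 9334332-9338336 beside PGRP-LC and PGRP-LF. PGRP-LA had 54.7, 54.0, 55.5 and 51.4 CPM in Chrom2-160R, against 46.0, 42.2, 45.0 and 46.0 CPM in Chrom2-5R. The groups were well apart and the spread within each was small, and the change of 0.27 ± 0.05 (edgeR adjusted p = 0.000682) held in all 18 alternatives. On chromosome 3, PGRP-LA had 45.6, 48.3, 47.0 and 46.0 CPM in Chrom3-160R and 43.2, 49.6, 44.0 and 45.2 CPM in Chrom3-5R, a change of 0.04 ± 0.05 (0.765). The difference between the chromosomes was -0.23 ± 0.07 (edgeR adjusted p = 0.0476). That call was lost with limma-voom (0.0502), with no low-count filter (0.0666), without both libraries with high muscle markers (0.0815), after thinning to the smallest library (0.179) and without any 1 library other than replicate 4 of Chrom2-160R or of Chrom2-5R (0.0553 to 0.104). PGRP-LD had 48.0, 37.5, 39.2 and 39.4 CPM in Chrom2-160R, against 32.7, 35.0, 35.8 and 34.5 CPM in Chrom2-5R. Its groups were apart, with a change of 0.25 ± 0.07 (edgeR adjusted p = 0.0175), but the gene has the same span and counts as Pmi, so the measured RNA cannot be assigned to either. On chromosome 3, PGRP-LD had 35.2, 38.8, 38.2 and 42.2 CPM in Chrom3-160R and 33.6, 36.6, 33.0 and 34.9 CPM in Chrom3-5R, a change of 0.16 ± 0.07 (0.275). The chromosome 2 call was lost without Chrom2-160R replicate 1 (0.0579), the library with the highest muscle marker sum, without Chrom2-5R replicate 1 (0.0528), with the compared groups only (0.0542) and after thinning (0.0672).

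The receptors of the Imd pathway were not called in either comparison. PGRP-LC, the membrane receptor, had 44.8, 52.6, 48.9 and 49.0 CPM in Chrom2-160R and 56.3, 55.2, 55.7 and 48.6 CPM in Chrom2-5R. On chromosome 3, PGRP-LC had 54.7, 51.2, 52.8 and 55.9 CPM in Chrom3-160R and 55.4, 54.5, 60.1 and 55.6 CPM in Chrom3-5R. The ranges overlapped, and the changes were -0.14 ± 0.06 and -0.07 ± 0.05 (edgeR adjusted p = 0.073 and 0.586). On chromosome 2 that of PGRP-LC was called without Chrom2-160R replicate 2 (0.041) or Chrom2-5R replicate 4 (0.0144). PGRP-LE, the receptor that also works inside cells, stayed within 12.5 to 15.7 CPM in all 16 libraries, with changes of 0.10 ± 0.07 and 0.04 ± 0.06 (edgeR adjusted p = 0.32 and 0.847). PGRP-LF, an inhibitor of the pathway, was at 9.01 to 15.9 CPM and changed by 0.16 ± 0.15 and -0.07 ± 0.13 (0.48 and 0.854). PGRP-LF overlaps UGP on the opposite strand, which has 23.3 times its counts. PGRP-SA, the secreted sensor upstream of Toll, was at 7.41 to 12.0 CPM, with changes of 0.16 ± 0.13 and 0.06 ± 0.12 (edgeR adjusted p = 0.395 and 0.882). PGRP-SD, which aids the sensing of bacteria, was at 13.5 to 38.7 CPM and changed by -0.04 ± 0.26 and -0.47 ± 0.25 (0.944 and 0.408), but it lies inside CG32373 with 133 times its counts. Of the amidases, PGRP-SB1 was at 36.6 to 136 CPM, PGRP-LB, which lies inside CG17230 with 5.81 times its counts, at 10.7 to 33.1 CPM and PGRP-SC2 at 1.11 to 6.21 CPM. None of the amidases was called, with edgeR adjusted p of 0.781, 0.248 and 0.998 on chromosome 2 and 0.811, 0.687 and 0.707 on chromosome 3 in that order.

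Per kilobase of gene span, the highest of these genes were peptide genes. IM2 had a median of 297 CPM per kb over the 16 libraries, CG16712 196, IM1 153 and Mtk 128. Among the receptors, PGRP-LA was at 11.5, PGRP-LC at 5.73 and PGRP-LE at 5.19 CPM per kb, and Rel was at 36.5. Spans include introns, which lowers the figure for the longer receptor genes.

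The insertion lines were compared within each repeat length, where line and depth go together. Among 160R flies, 5 of the 35 genes were lower in Chrom3-160R than in Chrom2-160R and 0 higher by edgeR, against 22.5% of all genes called. They were IM2 (-1.09 ± 0.14, adjusted p = 0.0001), IM23 (-1.20 ± 0.21, 0.00164), IM3 (-0.81 ± 0.12, 0.000333), IM1 (-0.86 ± 0.21, 0.0113) and PGRP-LA (-0.21 ± 0.05, 0.00471). All 5 were also higher in Chrom2-160R than in Chrom2-5R, and both comparisons use the Chrom2-160R libraries. Rel (-0.03 ± 0.09, 0.844) and PGRP-LD (-0.09 ± 0.07, 0.41), higher in that comparison too, were not called in this one. The PGRP-LA call was lost with library totals in place of TMM (0.0541). Among 5R flies, 30.3% of all genes were called, and of the 35 genes IM2 (-0.38 ± 0.14, 0.0463), IM3 (-0.44 ± 0.12, 0.0143) and IM4 (-0.36 ± 0.11, 0.0204) were lower and pirk (0.73 ± 0.24, 0.0313) higher in Chrom3-5R than in Chrom2-5R. Only the IM3 call held in all 18 alternatives. IM2 was lost without Chrom3-5R replicate 1, 3 or 4 (0.109, 0.111 and 0.0836) or Chrom2-5R replicate 1, 2 or 4 (0.132, 0.115 and 0.0503), with library totals (0.0977), no low-count filter (0.0702) or the compared groups only (0.087), after thinning (0.0709) and without both libraries with high muscle markers (0.0698). IM4 was lost with library totals (0.0689), without Chrom3-5R replicate 1 or 4 (0.0588 and 0.0527) or Chrom2-5R replicate 1 or 2 (0.0563 and 0.072), and pirk after thinning (0.0993), without Chrom3-5R replicate 1, 2 or 4 (0.0677, 0.0558 and 0.0601) or Chrom2-5R replicate 1, 3 or 4 (0.0791, 0.102 and 0.0593). The 14 classical peptides gave 0 calls in either line comparison by edgeR, with 1 unadjusted p below 0.05 among 160R flies (Drs, 0.0419) and 0 among 5R flies. Their median change was -1.07 among 160R flies and -0.60 among 5R flies (0.00 over all tested genes), with 11 of 14 negative in each. The median SE of these changes was 0.85 and 0.88 in the same order. Most of the 14 genes varied together by library, so their signs are not separate observations and give no direction. AttD, at 0.30 ± 0.93 among 160R flies, was called lower without Chrom3-160R replicate 4 (-1.89, 0.046).

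Other genes of the pathways, 47 in number, were tested from a list without these members. In the Toll list of 19 genes, 7 were lower and 1 higher in Chrom2-160R, a share of 42.1% where 26.1% of all genes were called and 13.3% were lower. On chromosome 3 edgeR and limma-voom called 0 of them, with 2 unadjusted p below 0.05, and DESeq2 called 0. GNBP3, the secreted sensor of fungal beta-glucan, was at 70.8, 64.1, 58.6 and 63.9 CPM in Chrom2-160R, against 107, 109.6, 113 and 88.7 CPM in Chrom2-5R. The groups were far apart, with a change of -0.70 ± 0.07 (edgeR adjusted p = 3.92e-06). GNBP1, the partner of PGRP-SA in sensing Gram-positive bacteria, was at 18.7, 15.5, 17.8 and 17.7 CPM in Chrom2-160R, against 25.1, 25.0, 25.8 and 26.5 CPM in Chrom2-5R. It too was lower in every 160R library, by -0.55 ± 0.06 (8.99e-06). The proteases modSP (-0.37 ± 0.05, edgeR adjusted p = 6.12e-05), SPE (-0.33 ± 0.06, 0.00079) and psh (-0.31 ± 0.07, 0.00451), which act in the cascade that matures Spätzle, were lower, as were GNBP2 (-0.37 ± 0.06, 0.000535) and the adaptor Myd88 (-0.16 ± 0.05, 0.0222). The protease grass was higher (0.48 ± 0.14, 0.0209). On chromosome 3 GNBP3 was at 87.7 ± 6.13 CPM in Chrom3-160R and 96.0 ± 2.95 CPM in Chrom3-5R (SD, n = 4 each), and GNBP1 at 27.4 ± 1.56 and 28.2 ± 1.69 CPM. The change differed between the chromosomes for GNBP3 (0.57 ± 0.10, edgeR adjusted p = 0.00248), GNBP1 (0.52 ± 0.08, 0.00142) and GNBP2 (0.46 ± 0.09, 0.00514). Neither Toll itself (0.09 ± 0.04, 0.1) nor the factors Dif (-0.11 ± 0.04, 0.0845) and dl (0.15 ± 0.07, 0.132) were called on chromosome 2 by edgeR. Toll was called with library totals (0.0474) and without Chrom2-5R replicate 4 (0.0439), and Dif without that library (0.031). The grass call was lost without Chrom2-160R replicate 1 (0.0689) or Chrom2-5R replicate 1, 2 or 3 (0.0586, 0.052 and 0.0612), and that of Myd88 without Chrom2-160R replicate 1 (0.0653) or Chrom2-5R replicate 1 or 3 (0.0679 and 0.0743), with the compared groups only (0.064) and with library totals (0.0762), while those of GNBP1, GNBP2, GNBP3, modSP, SPE and psh held in all 18 alternatives.

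In the Imd list of 20 genes, edgeR called 1 on chromosome 2 (5%, where 26.1% of all genes were called) and 0 on chromosome 3, where 1 unadjusted p was below 0.05 and DESeq2 and limma-voom called 0. On chromosome 2, 7 unadjusted p were below 0.05. The ubiquitin-conjugating enzyme gene ben was higher in Chrom2-160R at 167 ± 10.5 CPM, against 149.6 ± 8.04 CPM in Chrom2-5R (SD, n = 4 each), a change of 0.15 ± 0.05 (edgeR adjusted p = 0.0319). That call was lost without Chrom2-160R replicate 2 (0.119), without Chrom2-5R replicate 1 or 2 (0.106 and 0.082), after thinning (0.117), with the compared groups only (0.0926) and without both libraries with high muscle markers (0.0644). The gene imd itself changed by -0.14 ± 0.05 (0.0597) and was called without Chrom2-5R replicate 4 (0.00436). Other Imd genes were also called on chromosome 2 under some alternatives. Among them were Diap2 and dnr1 with library totals (0.0284 and 0.0321), Fadd without Chrom2-160R replicate 2 (0.0318) and casp with DESeq2 (0.0406). The median change was -0.10 over the Toll list, -0.03 over the Imd list and 0.31 over 8 further Bomanin and IM family genes, against 0.01 over all tested genes. Over the 3 lists together 13 of 47 genes (27.7%) were called on chromosome 2, with the Toll list above and the Imd list below the background of 26.1%, and 1 of 47 on chromosome 3. Whether the lists differ from other genes was not tested.

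**Figure D5:**
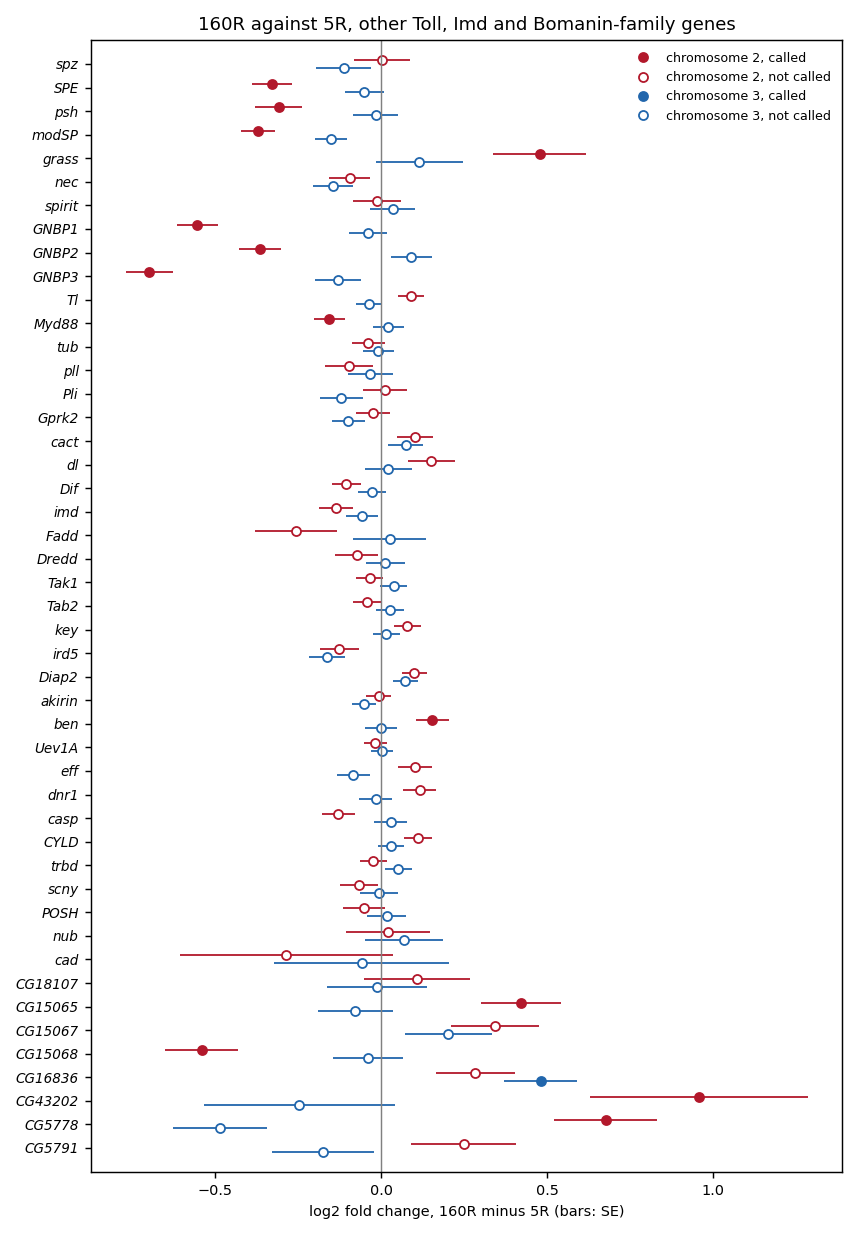
Log2 fold change of 160R against 5R (horizontal axis) for 47 other genes of the Toll pathway (top), the Imd pathway (middle) and the Bomanin and IM families (bottom), with chromosome 2 in red and chromosome 3 in blue. Points are edgeR estimates, bars are SE and filled points were called. The filled red points of GNBP3 at -0.70 and GNBP1 at -0.55 are the lowest of the Toll genes, most Imd genes lie near 0, and CG16836 is the only filled blue point.

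Marker genes of several tissues were also called in the chromosome 2 comparison, while the hemocyte marker sums of 160R and 5R heads overlapped. The summed level of 14 fat body markers was 8070 to 8963 CPM in Chrom2-160R and 13290 to 15100 CPM in Chrom2-5R, with 8 of the 14 called lower and 0 higher, where 13.3% of all genes were lower and 12.8% higher. On chromosome 3 it was 9757 to 10860 CPM in Chrom3-160R and 12310 to 13540 CPM in Chrom3-5R, with 1 lower. In bulk heads, fewer cells of a type and less RNA per cell cannot be told apart. The sum of 13 hemocyte markers was 1025 to 1166 CPM in Chrom2-160R and 1033 to 1170 CPM in Chrom2-5R, with 1 higher and 1 lower. Midgut markers summed to 45.3 to 61.5 CPM in Chrom2-160R and 97.0 to 128 CPM in Chrom2-5R, with 1 higher and 2 lower of 6 tested, and 6 of the 13, namely Mal-A7, betaTry, alphaTry, Jon25Bi, Jon99Ciii and LysP, had no count in some libraries. Muscle markers summed to 5758 to 10580 CPM in Chrom2-160R and 4482 to 5217 CPM in Chrom2-5R, with 4 of 9 higher and 0 lower, and neuron markers to 4851 to 4944 CPM in Chrom2-160R and 4324 to 4597 CPM in Chrom2-5R, with 4 of 7 higher and 0 lower. On chromosome 3, hemocyte sums are given above, and midgut markers summed to 49.8 to 79.5 CPM in Chrom3-160R and 64.7 to 96.4 CPM in Chrom3-5R, muscle markers to 3864 to 6577 CPM in Chrom3-160R and 3688 to 4688 CPM in Chrom3-5R, and neuron markers to 4101 to 4465 CPM in Chrom3-160R and 4231 to 4403 CPM in Chrom3-5R. Markers of the male accessory gland and ejaculatory bulb, 7 genes, summed to 264 to 445 CPM in Chrom2-160R, 304 to 474 CPM in Chrom2-5R (1 higher and 1 lower of 4 tested), 421 to 476 CPM in Chrom3-160R and 438 to 571 CPM in Chrom3-5R. Of these 7, Acp26Aa, Acp53C14a, Acp76A and Peb had no count in some libraries. The labelled tissue, heads, was checked on 8 photoreceptor markers, whose sum was 17100 to 20530 CPM in Chrom2-160R, 19730 to 28110 CPM in Chrom2-5R (1 higher and 3 lower), 13420 to 14640 CPM in Chrom3-160R and 13490 to 14290 CPM in Chrom3-5R. The part of these tissues in the changes above was not tested.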

How the data were processed

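RNA was extracted with Trizol from frozen heads, and strand-specific libraries were made without poly(A) selection, per the labels' protocols. The authors deposited whole-number read counts per gene for each library, not normalised, with gene positions. Trimmomatic, STAR, bedtools and DESeq and the builds BDGP6 and mm10 are named in the submitters' processing notes, and the sources used here give no roles, versions or settings. Positions are on BDGP6 and are printed from 1. Of the identifiers, 17252 were found in annotation release 115, 16959 with the same span, and 37 of the 39 genes described here had it. Symbols are those of the deposited files. Use of strand in counting was checked on genes inside another gene. On the same strand the host had at least the inner gene's counts in every library in 1420 of 1420 pairs, and on opposite strands in 1601 of 1624. The 21 opposite-strand pairs that share 80% or more of the host's span had a median ratio of inner to host counts of 0.94, so overlapping genes are uncertain on either strand.

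Tests used edgeR 4.0.16 under R 4.3.3 (filterByExpr, TMM, robust glmQLFit and glmQLFTest), with all 16 libraries fitted as 4 group means. The common biological coefficient of variation was 0.106. Alternatives were other size factors, library totals, other filters, DESeq2 1.42.0, limma-voom 3.58.1, the compared groups only, thinning to 11452337 counts, a replicate block and leaving out each library. The pipeline was tested on simulated counts. No library was a copy of another of its group: chi-square over its degrees of freedom was 6.91 to 43.66 for the 24 pairs within groups. Pairs across groups were not checked. The labels do not say that replicates are separate crosses, so a p-value here reflects only library-to-library spread, possibly technical. The genes and lists were chosen with earlier results of these data known. Genes called in any of the 5 comparisons and all classical peptides are given in full, and the others by range. PGRP-LC, given by library too, was chosen after its values were seen. List symbols not found in the files (WntD, IMPPP, FASN1, ChAT and Acp70A) were left out, which left 19 of 20 Toll genes, 20 Imd genes, 8 of 9 Bomanin and IM family genes and 14 of 15 fat body markers.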

Additional observations from a re-analysis of the deposited data

Results flagged for a closer look

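In 6 of 140 gene and group pairs, 1 library stood apart from the other 3 by Dixon's test, where chance gives about 1 in 20, or 7. IM1 was at 79.9 CPM in Chrom2-160R replicate 4, against 112 to 119 CPM in the other libraries of that group. IM14 was at 27.8 CPM in Chrom2-160R replicate 2, with 23.3 to 23.5 CPM in the others. Edin was at 5.35 CPM in Chrom3-5R replicate 1, with 0.777 to 0.937 CPM in the others. Rel was at 146 CPM in Chrom3-5R replicate 2, with 133 CPM in each of the others. PGRP-LC was at 48.6 CPM in Chrom2-5R replicate 4, with 55.2 to 56.3 CPM in the others. PGRP-LF was at 15.9 CPM in Chrom3-5R replicate 2, with 12.6 to 13.0 CPM in the others.

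The change of 160R against 5R was called as different between the insertion chromosomes for IM2, by -0.70 (edgeR adjusted p = 0.042), and for PGRP-LA, by -0.23 (0.0476), each chromosome 3 change minus chromosome 2 change. Both calls were near the threshold. That of IM2 was lost in 16 of 25 alternative analyses and that of PGRP-LA in 19 of 25. The share called, 2 of 35 genes (5.71%), was below the 7.27% of all genes. IM2 was at 110 ± 11.5 CPM in Chrom3-160R and 108 ± 20.2 CPM in Chrom3-5R, and at 235 ± 30.8 CPM in Chrom2-160R and 142 ± 18.4 CPM in Chrom2-5R (SD, n = 4 each).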

How the results depend on the processing

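Of the 19 called changes of these genes, recomputed under 356 alternative and left-out-library analyses in all, 278 kept their call and 78 lost it, and none changed sign. The number of genes called in the chromosome 2 comparison was 8 (5 with the compared groups only, 5 to 9 without 1 library). On chromosome 3 it was 0 (1 with DESeq2, 1 with the compared groups only). For the difference between the chromosomes it was 2, and 0 with no low-count filter, 0 after thinning to the smallest library and 0 without both libraries with high muscle markers, a setting chosen after seeing the data (0 to 3 without 1 library). For Chrom3-5R minus Chrom2-5R it was 4 (1 to 4 without 1 library). Of the pathway genes 1 was called on chromosome 3 (2 with DESeq2, 0 with the compared groups only, 0 to 1 without 1 library). Over all genes, 3535 were called on chromosome 2 (2293 with the compared groups only), 285 on chromosome 3 (541 with DESeq2, 178 after thinning, 167 to 337 without 1 library) and 983 for the difference (584 to 1695 without 1 library). The replicate numbers did not pair the samples: deviations from the group means of same-numbered libraries correlated at -0.02 to 0.07 on chromosome 2 and -0.15 to 0.09 on chromosome 3, and 1 of 4 and 0 of 4 of the 160R libraries correlated best with their own number. With the replicate number as a block, 0 genes were called for the difference between the chromosomes, 2 for Chrom3-5R minus Chrom2-5R and 0 pathway genes on chromosome 3, and 647 genes in all for the difference, and the block moved no other count of calls by over 1.5 times.

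The 28 changes of classical peptides were never called except Drs on chromosome 2 (3 of 18 settings), and 74 of their 502 alternative values turned sign. With limma-voom the chromosome 3 changes were -0.13 for AttB, -0.10 for AttC, -0.41 for CecA1, -0.22 for CecA2 and -0.004 for Drs, and the chromosome 2 changes were 0.72 for CecB and 0.42 for CecC. After thinning, AttC was at -0.069 and Drs at -0.062 on chromosome 3, and with the block AttC was at -0.033 and Dro at -0.012. Without both libraries with high muscle markers, the chromosome 3 changes were -0.45 for AttB, -0.31 for AttC, -0.72 for AttD, -0.69 for CecA1, -0.49 for CecA2, -0.53 for CecB, -0.31 for Dpt, -0.22 for Dro, -0.08 for Drs and -0.32 for Def, and the chromosome 2 change was 0.08 for Dro. Leaving out 1 library at a time, the changes that turned sign ranged on chromosome 2 over AttA -0.044 to 1.74, AttB -0.019 to 1.83, AttC -0.099 to 0.85, CecA1 -0.43 to 2.17, CecB -1.29 to 2.02, CecC -1.27 to 1.75, Dpt -0.12 to 0.85, Dro -0.84 to 0.089 and Def -1.38 to 0.16, and on chromosome 3 over AttA -0.79 to 0.18, AttB -0.44 to 0.70, AttC -0.36 to 0.43, AttD -0.72 to 1.85, CecA1 -0.69 to 1.11, CecA2 -0.49 to 1.02, CecB -0.53 to 0.61, CecC -1.11 to 0.033, Dpt -0.31 to 1.24, DptB -0.62 to 0.35, Dro -0.21 to 0.75, Drs -0.30 to 0.25, Def -0.32 to 0.56 and Mtk -0.48 to 0.16. Depth limits AttD and CecB most, with as few as 1 and 0 counts in a library. CecB had no value with at least 1 CPM in 4 libraries, and a fit of the compared groups only does not apply to the difference between the chromosomes. The causes of these differences were not tested.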
